A study of Mus musculus with 34 samples.

Results

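The class 3 semaphorins and their receptors are secreted guidance ligands and the surface proteins that bind them, and 10 genes of this family were followed in mouse limb buds at E11.5 by mRNA-seq. They were the ligand genes *Sema3a*, *Sema3c*, *Sema3d*, *Sema3e* and *Sema3f*, the co-receptor genes *Nrp1* and *Nrp2*, and the receptor genes *Plxna1*, *Plxna2* and *Plxnd1*. These 10 genes were found by their symbols among the 22040 protein-coding genes of the authors' table, whose unit is FPKM, a count of fragments scaled to the exon length of the gene and the size of the library. The CKO group consisted of *Prrx1-Cre;Hnrnpk* fl/fl embryos, in which Cre removes the floxed exons of *Hnrnpk*, and the WT group is labelled as wild type for *Hnrnpk*, with no further allele of it given in the sources used here. Each group had 3 biological replicates, embryos of both sexes were used, and whether a replicate was 1 embryo or a pool is not given in the sources used here, so *p* values measure only the spread between these samples. *Prrx1-Cre* acts in limb bud mesenchyme and calvarium, and the endothelial, blood, nerve, muscle precursor and ectodermal cells of a limb bud arise outside the mesenchyme that this driver targets.

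Class 3 semaphorins are released by cells and bind neuropilins, which have short cytoplasmic tails and pass the signal on through plexins of the A family, whereas *Sema3e* can bind *Plxnd1* without a neuropilin. Plexins act on small GTPases and on the cytoskeleton, and the usual outcome is that a growing axon or a migrating endothelial cell turns away from the source of the ligand. In the limb bud the family is known for steering motor and sensory axons and for patterning vessels, and neuropilins are also co-receptors of VEGF.

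*Hnrnpk*, the deleted gene, had an FPKM of 193, 195 and 185 in the WT libraries of replicates 1, 2 and 3, while CKO gave 127, 142 and 135. All 3 CKO values were below all WT values, a pattern found in 8.86% of all tested genes, and the CKO mean was 70.6% of the WT mean. The direction was that of the library labels, which this pattern alone does not establish. The FPKM is of all exons of the gene and not of the floxed exons alone. Its log2 fold change, on log2(FPKM + 0.1) as throughout, was -0.50 (limma, standard error (SE) of 0.13, Benjamini-Hochberg adjusted *p* = 0.334). In replicates 2 and 3 alone it was -0.45 (limma adjusted *p* = 0.0374), and over 17 alternatives the adjusted *p* values ran between 0.0255, in voom with the replicate number as a block, and 1. The tissue label was checked with 12 limb mesenchyme markers, all of which were above 0 in every library. Their summed FPKM was 453, 496 and 465 in WT and 444, 388 and 438 in CKO replicates 1, 2 and 3, and *Twist1* was the most abundant of them. Every CKO sum was below every WT sum, and 9 of the 12 markers had a log2 fold change below 0 (8 under median-ratio scaling and 10 under quantile normalization), against 49.1% of all tested genes. Their median was -0.16 (-0.21 in replicates 2 and 3 alone), against 0.0048 (0.0073) over all genes tested. With the replicate number as a block limma called 1 of the 12, *Tbx5*, as lower, a gene named after its values were seen, against 1.68% of all tested genes. Without the block limma called 0, against 0.0650%, with 1 of the 12 at an unadjusted *p* value under 0.05, against 8.31% of all tested genes. The part of mesenchymal content in the values of the family was not tested. Replicate 1 stood apart in both groups. Across the tested genes, which are not independent replicates, WT replicate 1 had a Pearson correlation of 0.986 with CKO replicate 1, against 0.968 and 0.974 with WT replicates 2 and 3. CKO replicate 1 in turn had 0.958 and 0.973 with CKO replicates 2 and 3.

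Of the 10 genes, 9 passed the filter of a mean FPKM of at least 0.5 and were among the 12305 genes tested, and *Sema3e* lay below it. No family gene had a limma adjusted *p* value under 0.05 in the comparison of CKO with WT, where 0.0650% of all tested genes passed. At an unadjusted *p* value under 0.05, limma gave 3 of the 9 genes, *Sema3f*, *Nrp1* and *Plxnd1*, against 8.31% of all tested genes, and limma voom on reads recovered from the FPKM also called 0 of the 9 after adjustment and gave 3 before it. The count of 3 at unadjusted p fell to 0 without WT replicate 3, to 1 without WT replicate 1, WT replicate 2, CKO replicate 2 or CKO replicate 3, and to 2 under median-ratio scaling or without the trend. Over all tested genes, 515 of 12288 passed unadjusted without WT replicate 3, 1393 of 12320 without WT replicate 1 and 577 of 12322 without WT replicate 2. Without CKO replicate 2 or CKO replicate 3 these were 714 of 12292 and 582 of 12306. They were 1020 of 12305 under median-ratio scaling, 1079 of 12305 without the trend and 946 of 11024 in voom without the block. None of the 9 differed by more than a factor of 2, up or down, while also reaching an unadjusted *p* value under 0.05, a rule that 0.666% of the tested genes met. The log2 fold change was above 0 for 4 of the 9 and below 0 for 5, with a median of -0.18, against a median of 0.0048 and 6264 higher and 6041 lower among all genes tested, and no sign of the 9 turned under median-ratio scaling or quantile normalization. In replicates 2 and 3 alone the median of the 9 was -0.10, against 0.0073 over all genes tested. In 2 of the 9 genes, *Sema3f* and *Plxnd1*, the CKO and WT values did not overlap, against 14.5% of all tested genes. Both were lower in CKO, a pattern found in 8.86% of all tested genes. A group of 3 against 3 libraries of bulk tissue cannot tell fewer cells of a type from less RNA per cell, which holds for each gene that follows.

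Taking the replicate number as a block, so that CKO is set against WT of the same number, although libraries 2 and 3 correlated about as well across these numbers as within them, limma gave a call for 1 of the 9 genes, *Plxnd1*, against 2.81% of all tested genes, and 1.68% of them in the lower direction. Within replicates 2 and 3 alone, limma called 2 of the 9, *Nrp1* as higher and *Sema3f* as lower, where 15.1% of the genes tested passed. Limma voom with the replicate block also called 2 of the 9, *Nrp1* as higher and *Plxnd1* as lower, against 5.14% of its genes. No single family gene was called in all 3 of these fits.

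**Figure D1:**
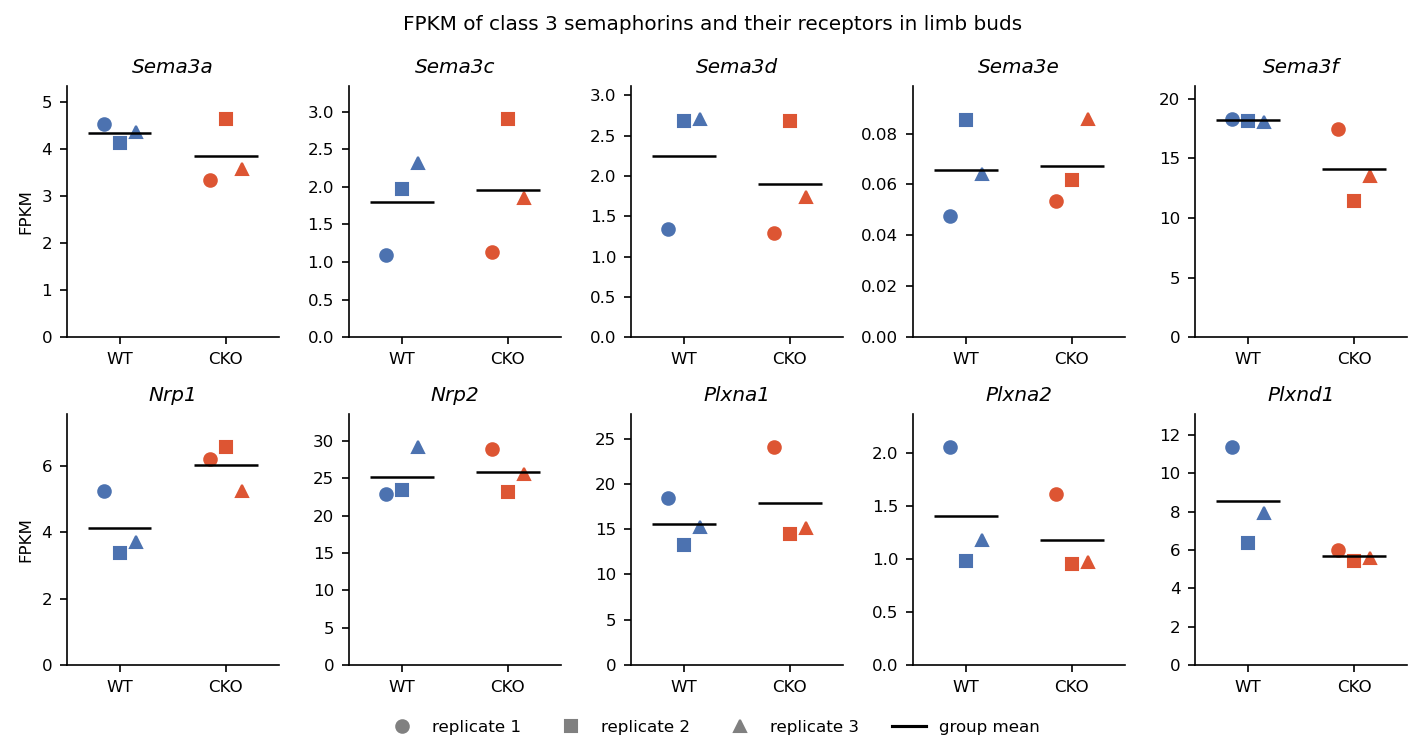
FPKM (vertical axes, each from 0) of the 10 family genes in WT and CKO limb buds, with 1 point per library, the marker shape giving the replicate number and the line giving the group mean (n = 3). The groups do not overlap for *Sema3f* and *Plxnd1*, and for *Nrp1* they meet only where WT replicate 1 (5.250) lies just above CKO replicate 3 (5.241).

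Among the ligands, *Sema3f* (ENSMUSG00000034684), known as a repellent that acts through *Nrp2*, had the highest level. Its FPKM was 18.3, 18.2 and 18.1 in the WT libraries of replicates 1, 2 and 3, while CKO gave 17.5, 11.4 and 13.5. The WT libraries were nearly identical, CKO replicate 1 lay close below them, and CKO replicates 2 and 3 were clearly lower, so that the groups did not overlap. The means were 18.2 ± 0.1203 in WT and 14.1 ± 3.08 in CKO (SD, n = 3), with the CKO mean at 77.6% of that of WT. The log2 fold change was -0.38 (limma, SE 0.16, 95% confidence interval -0.76 to -0.0080, adjusted *p* = 0.582). Between libraries of the same number, the log2 differences were -0.07, -0.67 and -0.42. Without replicate 1 in either group, the log2 fold change was -0.54 and *Sema3f* passed the threshold (limma adjusted *p* = 0.0032). Without CKO replicate 2 the log2 fold change was -0.24 (limma adjusted *p* = 0.908). The 17 alternatives gave *Sema3f* adjusted *p* values of 0.0032 to 1. The WT values of *Sema3f* came from 1715 to 2259 reads and the CKO values from 1134 to 1671.

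*Sema3a*, the ligand that repels axons through *Nrp1*, had an FPKM of 4.52, 4.12 and 4.36 in WT and 3.33, 4.64 and 3.56 in CKO replicates 1, 2 and 3. CKO replicates 1 and 3 lay below the WT values and CKO replicate 2 above them. The log2 fold change was -0.18 (limma, SE 0.15, adjusted *p* = 0.832), and its 95% confidence interval of -0.54 to 0.18 held changes in either direction. It was -0.32 without CKO replicate 2, -0.09 without CKO replicate 1 and -0.06 in replicates 2 and 3 alone.

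*Sema3c*, a ligand known from the outflow tract of the heart, had an FPKM of 1.09, 1.97 and 2.32 in WT and 1.13, 2.90 and 1.85 in CKO replicates 1, 2 and 3. *Sema3d*, known for guiding axons and endothelial cells, had an FPKM of 1.34, 2.69 and 2.71 in WT and 1.29, 2.68 and 1.74 in CKO. Both genes were lowest in replicate 1 of each group, where the log2 difference to the mean of the other replicates was -0.91 (WT) and -0.98 (CKO) for *Sema3c* and -0.96 and -0.70 for *Sema3d*. That gap was wider than the fold change of either gene, 0.09 for *Sema3c* (limma, SE 0.37, adjusted *p* = 0.968) and -0.22 for *Sema3d* (limma, SE 0.34, adjusted *p* = 0.905). The sign of *Sema3c* turned to -0.21 without WT replicate 1 and to -0.23 without CKO replicate 2, and that of *Sema3d* to 0.01 without CKO replicate 1.

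*Sema3e*, the ligand of *Plxnd1*, had an FPKM of 0.0478, 0.0855 and 0.0642 in WT and 0.0536, 0.0619 and 0.0858 in CKO replicates 1, 2 and 3. These values rested on 8 to 19 reads per library in WT and 9 to 19 in CKO. The groups overlapped, with means of 0.0658 in WT and 0.0671 in CKO, and the difference that so few reads could show was not tested. Taken as a sum over the 5 ligand genes, the FPKM was 25.3, 27.0 and 27.5 in WT and 23.3, 21.7 and 20.7 in CKO, with each CKO sum below all WT sums. *Sema3f* supplied between 52.6% and 75.1% of this sum in each library. The sum of *Sema3a*, *Sema3c* and *Sema3d* was 6.94, 8.78 and 9.39 in WT and 5.75, 10.2 and 7.16 in CKO, with overlap between the groups.

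*Sema3d*, *Sema3a*, *Sema3e* and *Sema3c* lie in this order on the plus strand of chromosome 5 (GRCm38), between 12383385 and 17730268, a span of 5.35 megabases. The gaps between them were 536, 423 and 3318 kilobases, and the span held 21 genes of the table, of which 5 were tested. Besides the 3 tested semaphorins these were 2 genes, with 1 of them higher in CKO and 0 called. *Sema3f* lies apart, on the minus strand of chromosome 9 from 107681500 to 107710475.

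*Nrp1* (ENSMUSG00000025810), the co-receptor of *Sema3a* and of VEGF, had an FPKM of 5.25, 3.38 and 3.72 in WT replicates 1, 2 and 3. In CKO its FPKM was 6.21, 6.58 and 5.24. Each CKO value was above the WT value of the same number, and the groups met only between WT replicate 1 (5.250) and CKO replicate 3 (5.241). The means were 4.12 ± 0.996 in WT and 6.01 ± 0.692 in CKO (SD, n = 3), a ratio of 1.46. The log2 fold change was 0.55 (limma, SE 0.19, 95% confidence interval 0.12 to 0.99, adjusted *p* = 0.488). Between libraries of the same number the log2 differences were 0.24, 0.94 and 0.49, higher in 3 of 3 pairs. The share of all tested genes that lay on 1 side in 3 of 3 pairs was not counted. With the replicate block the limma adjusted *p* value of *Nrp1* was 0.0550. *Nrp1* passed the threshold in replicates 2 and 3 alone (log2 fold change 0.71, limma adjusted *p* = 5.7e-04) and in voom with the block (0.57, limma adjusted *p* = 0.0114), within a range of 5.7e-04 to 1 over 17 alternatives. Leaving out 1 library at a time moved the log2 fold change from 0.43 (without WT replicate 2) to 0.74 (without WT replicate 1). The gene, on the plus strand of chromosome 8 from 128358604 to 128503363, had 792 to 926 reads in each WT library and 1100 to 1233 in each CKO library, and 80 bases of its exons also belong to a microRNA gene of that strand.

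Because hnRNPK has KH domains that bind C-rich strands, the 250 bases before the RefSeq start sites (GRCm38.p6) were searched for CTCCCC on both strands, letters chosen after the sequences were seen. The promoter table held 8 of the 10 genes, all but *Sema3f* and *Plxna1*, and 4 of them, *Sema3d*, *Nrp1*, *Plxna2* and *Plxnd1*, had a match, against 29.9% of all 32851 promoter windows. The window of *Nrp1*, shown because this gene had the highest log2 fold change of the family, is chr8:128358823-128359072 on the plus strand, overlaps no exon of GENCODE vM21 and lies in an intron of an annotated *Nrp1* transcript that starts further upstream. Capitals mark the 3 matches, which read GGGGAG on the gene's strand and begin 194, 105 and 61 bases before the start site.
Nrp1: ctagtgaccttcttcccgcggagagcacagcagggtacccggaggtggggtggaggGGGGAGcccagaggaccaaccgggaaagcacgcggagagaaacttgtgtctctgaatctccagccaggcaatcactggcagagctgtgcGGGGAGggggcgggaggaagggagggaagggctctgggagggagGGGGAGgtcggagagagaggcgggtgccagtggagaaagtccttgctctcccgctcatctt
Such a match is a description of letters, and binding was not analysed here.

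*Nrp2*, the co-receptor of *Sema3f*, had the highest level of the family, with an FPKM of 22.9, 23.4 and 29.2 in WT and 28.9, 23.1 and 25.6 in CKO replicates 1, 2 and 3. The highest WT and the highest CKO library were of different numbers, and the groups overlapped over nearly their whole range. For *Nrp2*, the log2 fold change was 0.04 (limma, SE 0.14, 95% confidence interval -0.30 to 0.38, adjusted *p* = 0.964), and it was -0.10 in replicates 2 and 3 alone. The ratio of *Nrp2* to *Nrp1* FPKM within a library was 4.37, 6.92 and 7.87 in WT and 4.65, 3.51 and 4.89 in CKO. WT replicate 1 thus sat among the CKO libraries in this ratio, apart from WT replicates 2 and 3.

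**Figure D2:**
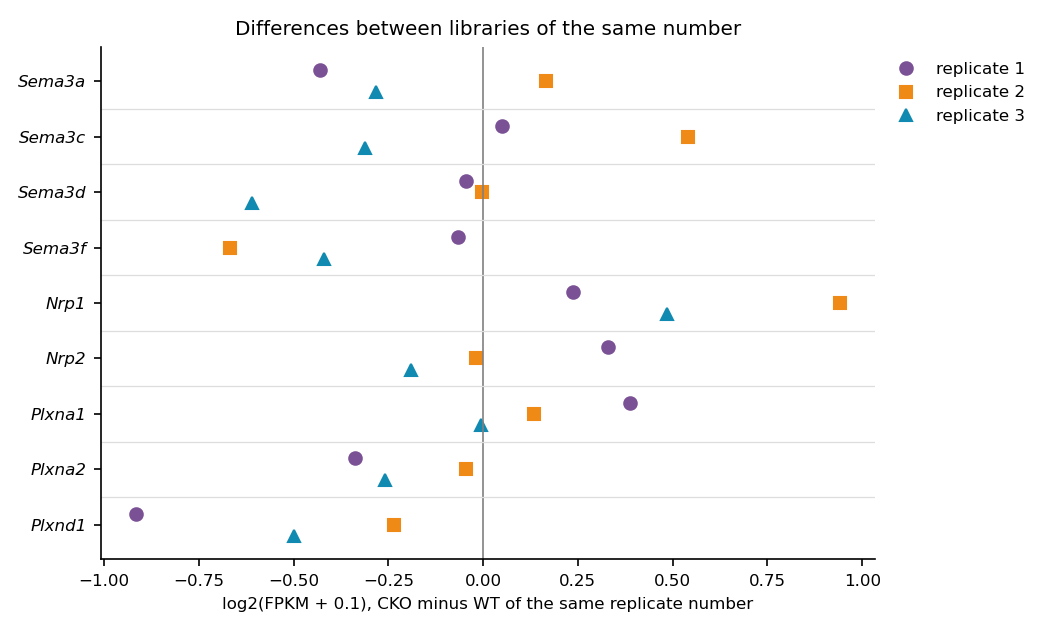
Difference in log2(FPKM + 0.1) between the CKO and the WT library of the same replicate number (horizontal axis) for the 9 tested genes, with 1 marker per number. All 3 markers lie above 0 for *Nrp1* (0.24, 0.94 and 0.49) and below 0 for *Sema3d*, *Sema3f*, *Plxna2* and *Plxnd1*. For *Sema3d* the replicate 2 marker is at -0.0043. For *Sema3f* and *Plxnd1*, whose groups do not overlap, any pairing would put all markers below 0. The share of all tested genes with all markers on 1 side was not counted, and only number 1 stood out as a pair.

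*Plxna1*, a receptor chain that partners the neuropilins, had an FPKM of 18.4, 13.2 and 15.2 in WT and 24.1, 14.5 and 15.2 in CKO replicates 1, 2 and 3. Replicate 1 was highest in both groups, and the other libraries overlapped. Its log2 fold change was 0.17 (limma, SE 0.22, adjusted *p* = 0.882), and it was -0.06 without CKO replicate 1. Of the exon bases of *Plxna1*, 970 also belong to a gene of the opposite strand, and whether counting used the strand is not given in the sources used here.

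*Plxna2*, a receptor of the same family, had an FPKM of 2.06, 0.983 and 1.18 in WT and 1.61, 0.949 and 0.969 in CKO replicates 1, 2 and 3. It too was highest in replicate 1 of both groups, by 0.87 (WT) and 0.69 (CKO) on the log2 scale against the other replicates. The log2 fold change was -0.21 (limma, SE 0.31, adjusted *p* = 0.898), and it was 0.08 without WT replicate 1. Between libraries of the same number the log2 differences were -0.34, -0.05 and -0.26.

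*Plxnd1* (ENSMUSG00000030123), the receptor of *Sema3e* and a gene of vascular endothelium, had an FPKM of 11.4, 6.37 and 7.94 in WT replicates 1, 2 and 3. In CKO its FPKM was 6.001, 5.40 and 5.59. The CKO libraries lay within a narrow band below the lowest WT library, and WT replicate 1 was far above the rest. The means were 8.57 ± 2.57 in WT and 5.66 ± 0.307 in CKO (SD, n = 3), with the CKO mean at 66.1% of that of WT. Its log2 fold change was -0.55 (limma, SE 0.21, 95% confidence interval -1.03 to -0.07, adjusted *p* = 0.550). With the replicate block the standard error was 0.13 and *Plxnd1* passed the threshold (limma adjusted *p* = 0.0473). Between libraries of the same number the log2 differences were -0.92, -0.24 and -0.50. That all were below 0 follows from the lack of overlap and would hold for any pairing. The 17 alternatives gave *Plxnd1* adjusted *p* values of 0.0108 to 1. The log2 fold change was -0.33 without WT replicate 1, -0.74 without WT replicate 2 and -0.37 in replicates 2 and 3 alone (limma adjusted *p* = 0.0622). The WT values of *Plxnd1* came from 1114 to 1501 reads and the CKO values from 755 to 973.

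The window before the *Plxnd1* start site, shown because this was the only family gene called by limma on FPKM with the block, is chr6:115995006-115995255 on the minus strand and overlaps no exon of GENCODE vM21. Its 1 match, GGGGAG on the gene's strand, is in capitals and begins 19 bases before the start site, against 3 matches in the *Nrp1* window, and 64.8% of its bases are G or C, against 64.4% in that of *Nrp1* and a median of 52.4% over all windows.
Plxnd1: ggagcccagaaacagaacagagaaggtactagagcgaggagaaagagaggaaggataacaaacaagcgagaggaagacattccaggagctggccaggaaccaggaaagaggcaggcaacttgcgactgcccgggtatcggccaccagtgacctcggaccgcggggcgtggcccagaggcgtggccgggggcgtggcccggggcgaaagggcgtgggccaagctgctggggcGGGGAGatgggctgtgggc
The log2 fold changes of these 2 genes had opposite signs, with limma adjusted *p* values of 0.488 (*Nrp1*) and 0.550 (*Plxnd1*) without the block. A link between the matches and these values was not tested.

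**Figure D3:**
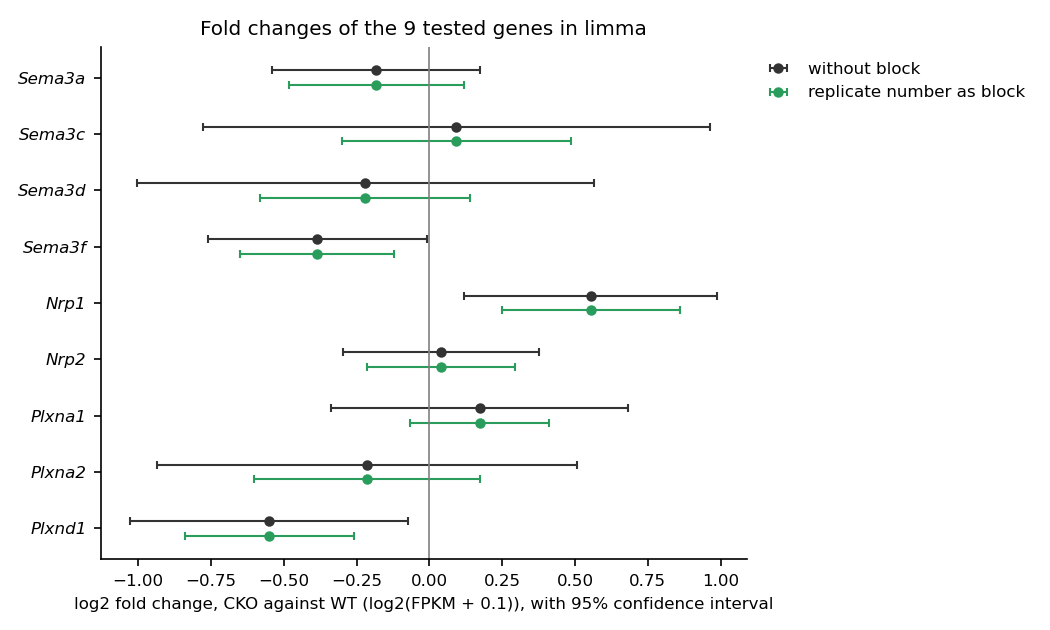
Log2 fold change of CKO against WT (horizontal axis, on log2(FPKM + 0.1)) for the 9 tested genes in limma, with 95% confidence intervals without the block (black) and with the replicate number as a block (green). The estimates are the same in both fits, and the unadjusted intervals of *Sema3f*, *Nrp1* and *Plxnd1* lie on 1 side of 0 in either.

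Within a library, the share of *Plxnd1* in the summed FPKM of the 3 plexin genes was 35.8%, 31.0% and 32.6% in WT and 18.9%, 25.9% and 25.7% in CKO replicates 1, 2 and 3. The share of *Plxna1* was 57.8%, 64.2% and 62.5% in WT and 76.0%, 69.6% and 69.8% in CKO. Neither share overlapped between the groups, and the summed plexin FPKM did, with 31.9, 20.6 and 24.3 in WT and 31.8, 20.9 and 21.7 in CKO. These shares nearly mirror each other, because only *Plxna2* makes up the rest, and *Plxna1* FPKM itself overlapped between the groups. The ratio of *Nrp1* to *Plxnd1* FPKM, a pair chosen after the values were seen, was 0.460, 0.530 and 0.468 in WT and 1.03, 1.22 and 0.938 in CKO. All CKO ratios were above all WT ratios, and no test was run on them.

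Ranked by mean FPKM in WT, the order was *Nrp2* (25.2), *Sema3f* (18.2), *Plxna1* (15.6), *Plxnd1* (8.57), *Sema3a* (4.33), *Nrp1* (4.12), *Sema3d* (2.24), *Sema3c* (1.79), *Plxna2* (1.41) and *Sema3e* (0.0658). The WT ranges of these neighbours overlapped for *Sema3f* and *Plxna1*, for *Sema3a* and *Nrp1*, for *Sema3d* and *Sema3c*, and for *Sema3c* and *Plxna2*. In CKO, *Plxna1* ranked above *Sema3f*, with mean FPKM of 17.9 and 14.1, *Nrp1* above both *Plxnd1* and *Sema3a*, with 6.01, 5.66 and 3.85, and *Sema3c* above *Sema3d*, with 1.96 and 1.90. The CKO values of these pairs overlapped except for *Nrp1* and *Sema3a*, where every *Nrp1* value was above every *Sema3a* value.

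*Plxnd1* is read here beside 10 endothelial markers, whose summed FPKM was 38.5, 33.0 and 33.3 in WT and 20.7, 32.2 and 30.4 in CKO replicates 1, 2 and 3. Every CKO sum was below every WT sum, and CKO replicate 1 had the lowest. All 10 markers were tested and had a log2 fold change below 0 (9 of 10 under quantile normalization), against 49.1% of all tested genes, with a median of -0.32 over all 6 libraries and of -0.05 in replicates 2 and 3 alone. Of the 10, limma called 0 without the block, against 0.0650% of all tested genes, and 0 with it, against 2.81%, with 2 at an unadjusted *p* value under 0.05 without the block, against 8.31%. None of the 10 was at 0, and the most abundant was *Cdh5*, a junction protein of endothelium, with an FPKM of 12.4, 6.79 and 7.95 in WT and 6.30, 7.42 and 7.39 in CKO. The ratio of *Plxnd1* to the endothelial sum was 0.296, 0.193 and 0.238 in WT and 0.290, 0.168 and 0.184 in CKO, with overlap between the groups and a lower CKO value in 3 of 3 pairs of the same number. The ratio of *Nrp1* to that sum was 0.136, 0.103 and 0.111 in WT and 0.2998, 0.204 and 0.173 in CKO, with no overlap. *Nrp1* FPKM alone did overlap, and the ratio also carries the lower endothelial sum of each CKO library. No test was run on this ratio, and the share of all tested genes without overlap in it was not counted. The part of endothelial content in the *Plxnd1* and *Nrp1* values was not tested.

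**Figure D4:**
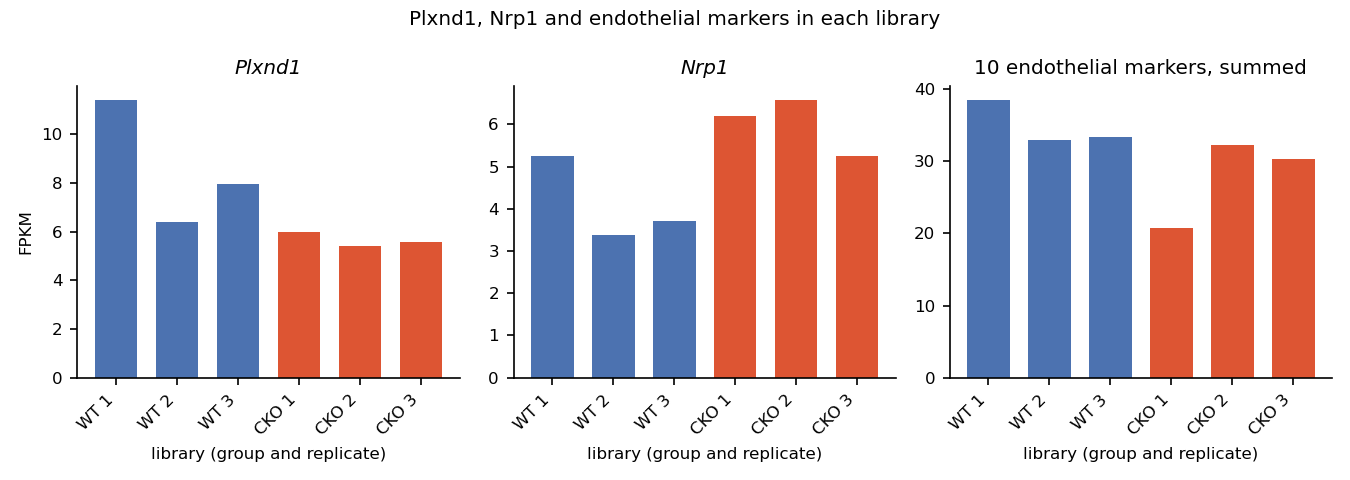
FPKM (vertical axes from 0) of *Plxnd1*, of *Nrp1* and of the sum of 10 endothelial markers in each library, with WT in blue and CKO in red. CKO replicate 1 has the lowest endothelial sum (20.7), and *Plxnd1* is below all WT libraries in each CKO library.

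Other cell types that carry family genes were read from marker lists in the same way. Schwann precursor and neural crest markers, 8 genes led by *Ngfr*, summed to 5.72, 14.0 and 13.4 FPKM in WT and 11.1, 14.3 and 13.4 in CKO replicates 1, 2 and 3, lowest in WT replicate 1. Neuron and axon markers, 9 genes led by *Tubb3*, summed to 13.9, 11.52 and 11.7 in WT and 10.7, 10.5 and 10.5 in CKO, with all CKO sums below all WT sums. Muscle precursor markers, 7 genes led by *Myog*, summed to 18.5, 32.9 and 30.2 in WT and 31.0, 39.1 and 35.8 in CKO. The glial and the muscle sums were lowest in replicate 1 of both groups, as were *Sema3c* and *Sema3d*.

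Ectoderm markers, 9 genes led by *Krt5*, summed to 47.8, 67.8 and 79.1 FPKM in WT and 52.6, 81.1 and 80.7 in CKO replicates 1, 2 and 3. Early cartilage markers, 8 genes led by *Col2a1*, summed to 93.6, 151 and 150 in WT and 103, 88.9 and 98.3 in CKO, and macrophage markers, 8 genes led by *C1qb*, to 17.2, 19.8 and 27.4 in WT and 19.6, 33.5 and 23.3 in CKO. Ectoderm and macrophage sums were likewise lowest in replicate 1 of both groups. The cartilage sums of CKO replicates 2 and 3 were below those of WT replicates 2 and 3, as for *Sema3f*. In replicate 1 the cartilage sum was higher in CKO (103 against 93.6) and *Sema3f* lower (17.5 against 18.3). Erythroid markers, 11 genes led by the globin gene *Hbb-y*, summed to 37835, 63316 and 64043 in WT and 30867, 143009 and 85554 in CKO, again lowest in replicate 1 of both groups and highest in CKO replicate 2. Among tested markers, all 6 muscle and all 11 erythroid genes had a log2 fold change above 0, with medians of 0.48 and 0.40, and 0.26 and 0.73 in replicates 2 and 3 alone. Under quantile normalization 8 of 11 erythroid genes were above 0, with a median of 0.14. All 4 glial genes were above 0 with a median of 0.30, which was -0.05 in replicates 2 and 3 alone, and all 6 cartilage genes were below 0 with a median of -0.38, which was -0.61 in those replicates. The neuron list had 3 of 4 below 0 (median -0.20), the ectoderm list 7 of 9 above it (0.14, and 8 of 9 above it under quantile normalization) and the macrophage list 6 of 7 above it (0.23), against 49.1% of all tested genes below 0. With the replicate block limma called 1 gene of these lists, the cartilage collagen gene *Col11a2*, as lower, a gene named after its values were seen, against 1.68% of all tested genes. Without the block it called 0, against 0.0650%, with 5 at an unadjusted *p* value under 0.05, against 8.31% of all tested genes. The 5 were 1 of 4 glial, 1 of 4 neuron, 1 of 6 muscle and 2 of 6 cartilage genes. The counts were 0 of 11 erythroid, 0 of 9 ectoderm and 0 of 7 macrophage genes. No gene of these lists was at 0 in all libraries, and the part of cell content in the values of the family was not tested.

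Beyond the family, 55 genes of the pathway were read from 6 lists, of which 48 were tested. Limma called 0 of them without the block, in either direction, with 3 at an unadjusted *p* value under 0.05, against 8.31% of all tested genes, and 2 with the replicate block, both lower in CKO, against 1.68%. Of the 48 genes, 38 had a log2 fold change below 0 and 10 above it (36 and 12 under median-ratio scaling, 37 and 11 under quantile normalization), with a median of -0.17 (-0.22 in replicates 2 and 3 alone), against 0.0048 (0.0073) over all genes tested. The limb mesenchyme markers had a similar median of -0.16 (-0.21), and the medians of the other marker lists lay on both sides of 0. The CKO and WT values did not overlap in 8 of the 48, all lower in CKO, against 8.86% of all tested genes that were lower without overlap and 14.5% without overlap in either direction.

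Both genes called with the block act downstream of the family. *Gipc1*, an adaptor that binds the cytoplasmic tail of *Nrp1*, had an FPKM of 37.7, 40.8 and 35.7 in WT and 26.3, 21.2 and 23.2 in CKO replicates 1, 2 and 3. All CKO values were far below all WT values, with a log2 fold change of -0.69 (SE 0.13) and limma adjusted *p* values of 0.187 without and 0.0073 with the block (5.5e-05 to 0.853 over 17 alternatives). *Dpysl4*, of the family of CRMP proteins that relay semaphorin signals to microtubules, had an FPKM of 4.99, 4.95 and 4.90 in WT and 3.32, 2.11 and 2.28 in CKO. Its WT values were nearly identical and all CKO values were lower, with a log2 fold change of -0.94 (SE 0.18) and limma adjusted *p* values of 0.201 without and 0.0047 with the block (8.3e-07 to 0.861 over 17 alternatives). Without CKO replicate 1, *Dpysl4* passed without the block as well (log2 fold change -1.14, limma adjusted *p* = 0.0338).

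By list, the other class 3 semaphorins *Sema3b* and *Sema3g* had log2 fold changes of -0.06 and -0.27, with that of *Sema3b* at 0.0050 under quantile normalization. The 13 other semaphorins, most of them membrane-bound, had a median of -0.09 (-0.22 in replicates 2 and 3 alone), with 10 lower and 3 higher (8 and 5 under either scaling), and the most abundant were *Sema4c* (-0.17) and *Sema6c* (-0.31). The value of *Sema4c* was -0.03 without WT replicate 1 or without CKO replicate 2 and -0.35 without CKO replicate 1, and that of *Sema6c* was -0.12 without CKO replicate 2. Of these, *Sema6c* passed in replicates 2 and 3 alone (limma adjusted *p* = 0.0030), and its 17 alternatives reached 1. Of 6 other plexins, 4 were tested, all with a log2 fold change below 0 and a median of -0.31 (-0.47 in replicates 2 and 3 alone), led in level by *Plxnb2* (-0.07) and *Plxnb1* (-0.45). *Plxnb1*, a receptor of class 4 semaphorins, had a limma adjusted *p* value of 0.682, which was 0.0012 in replicates 2 and 3 alone, 0.0265 in voom with the block, 0.0690 with the block on FPKM and 1 at most over 17 alternatives.

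Of 6 genes for co-receptors and processing, 3 were tested, with a median of -0.11 (-0.28 in replicates 2 and 3 alone), and besides *Gipc1* the most abundant was *Adamts1*, a protease that can cleave semaphorins, with a log2 fold change of -0.11. Of 20 intracellular effectors, 18 were tested, with a median of -0.14 (-0.20 in replicates 2 and 3 alone), 12 lower and 6 higher (14 and 4 under quantile normalization), and the most abundant were the actin-severing gene *Cfl1* (0.05, and -0.13 under quantile normalization) and the GTPase gene *Rac1* (-0.19). The 8 VEGF ligand and receptor genes, which share the neuropilins, had a median of -0.27, with 7 lower and 1 higher, by 3.4e-05. Their most abundant genes were *Vegfb* (-0.29, limma adjusted *p* = 0.624) and *Vegfa* (-0.36, limma adjusted *p* = 0.712), and *Vegfa* passed in replicates 2 and 3 alone (limma adjusted *p* = 0.0109, the lowest over 17 alternatives that reached 1). All 10 endothelial markers were also below 0, with a median of -0.32. In replicates 2 and 3 alone the median was -0.26 for the VEGF list and -0.05 for the endothelial markers. The part of endothelial content in the VEGF list was not tested.

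**Figure D5:**
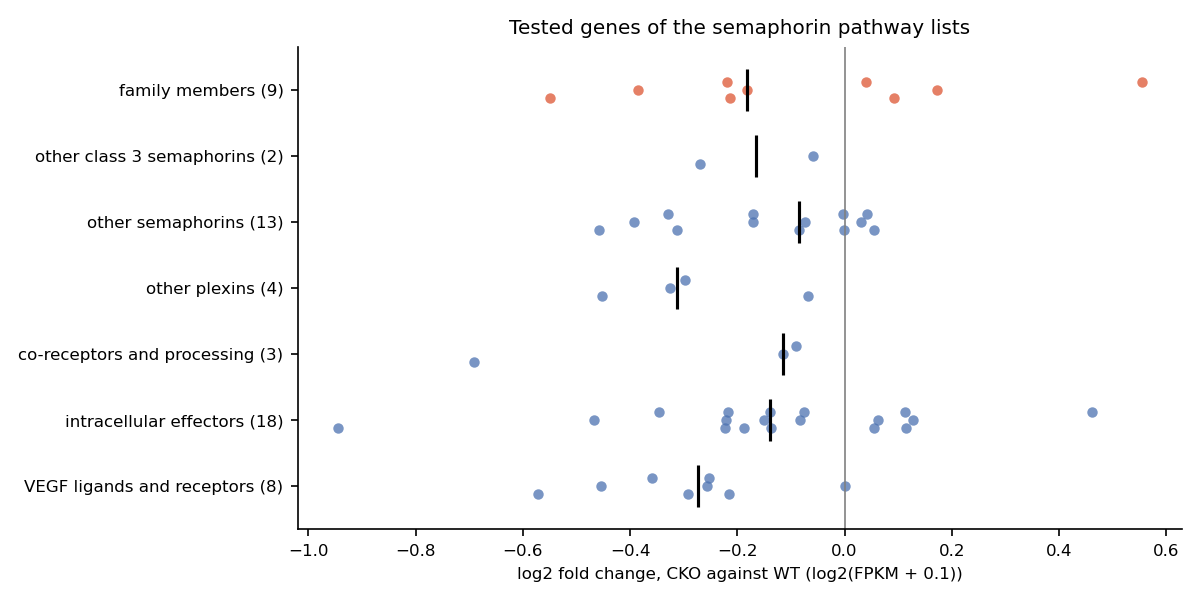
Log2 fold change of CKO against WT (horizontal axis, on log2(FPKM + 0.1)) of each tested gene, with the 9 family members in red, the genes of 6 pathway lists in blue, the number tested in brackets and each list's median as a black line. The family spans -0.55 (*Plxnd1*) to 0.55 (*Nrp1*), and the lowest point is *Dpysl4* (-0.94).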

How the data were processed

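RNA of 3 WT and 3 CKO limb bud replicates was sequenced by the authors with a stranded mRNA kit. The values are FPKM as deposited by the authors for protein-coding genes. The submitters' processing notes name mm10, cutadapt 2.5, HISAT2 2.1.0 and featureCounts 1.6.3 for the series without giving their roles, and the step that made FPKM is not given in the sources used here. Values times the merged exon length of GENCODE vM21 came out as whole reads, within 0.1, for all 10 family genes. The library sizes that gave whole reads at low values were 18026061, 23935512 and 21810391 in WT and 18099467, 19146570 and 23848046 in CKO replicates 1, 2 and 3. They are estimates: of the 21933 genes found in GENCODE, 92.6% came out whole in all libraries, and the reads summed over all 21933 were 0.947 to 1.11 times the size, above it in CKO replicates 2 and 3. A tested family gene rested on 140 to 7553 reads per library.

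CKO was compared with WT by limma 3.58.1 in R 4.3.3 (lmFit, then eBayes with its trend option). The input was log2(FPKM + 0.1) of the 12305 genes that averaged an FPKM of 0.5 or more, with Benjamini-Hochberg adjustment over all of them. The pseudocount pulls the fold changes of low genes towards 0. An exact permutation test of 3 against 3 cannot go below *p* = 0.1 and was not used. The fit was tested on simulated data. Tables and plots were made in Python 3.11.15.

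WT and CKO samples carry the same replicate numbers. Deviations from the group means over the tested genes correlated by 0.64, 0.44 and 0.27 between the WT and CKO libraries of number 1, 2 and 3. Each was above 0.1, and libraries of 1 number were treated as a pair in the fits with the block, but not in the main fit. WT replicate 2 with CKO replicate 3 gave 0.49 and WT replicate 3 with CKO replicate 2 gave 0.31, against 0.44 and 0.27 within numbers 2 and 3, so only number 1 stood out as a pair. What a number stands for is not given in the sources used here. Alternatives used a pseudocount of 0.5 or 1, all genes or those that averaged 1 FPKM or more, median-ratio scaling, quantile normalization, no trend, the replicate block, each library left out, replicates 2 and 3 only, and voom on recovered reads with and without the block.

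The members and lists were chosen with earlier results of these data known. Named from the pathway lists were genes called with or without the block and the 2 with the highest mean FPKM, and from the marker lists the gene with the highest mean FPKM. Other genes are said to be chosen after their values were seen. Promoter sequences are those of RefSeq. Other assays of the series were not used here.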

Additional observations from a re-analysis of the deposited data

How the results depend on the processing

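With 3 libraries per group, the adjusted calls depended on how the replicates were treated. The count of all genes called by limma was 8, and it was 14 with quantile normalization, 346 with the replicate block, 1863 in replicates 2 and 3 only, 567 in voom with the replicate block, and 1 to 23 with 1 library left out. It was 1 when WT replicate 3 or either of CKO replicates 2 and 3 was left out, 3 without WT replicate 2 and 23 without CKO replicate 1. The count of family genes called was 0, and 1 with the replicate block, 2 in replicates 2 and 3 only and 2 in voom with the replicate block, and 0 in the other 14 alternatives. The block compares libraries of the same number, of which only number 1 stood out as a pair. On FPKM it changed the family call of *Plxnd1* alone, and in voom those of *Nrp1* and *Plxnd1*. It raised the calls among the pathway lists from 0 to 2. Family genes without overlap numbered 2, and 3 with quantile normalization (14.1% of all tested genes), 5 in replicates 2 and 3 only (58.5%) and 2 to 4 with 1 library left out (18.1% to 41.9%), with 4 without WT replicate 1 (31.6%).

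Of 153 values of the 9 tested family genes under the alternatives, 139 kept direction and side of the threshold, 5 crossed it in the same direction and 9 turned sign, none of them past it. With 1 library left out, the log2 fold change ran from -0.32 to -0.0883 for *Sema3a*, -0.23 to 0.42 for *Sema3c*, -0.54 to 0.014 for *Sema3d*, -0.0415 to 0.15 for *Nrp2*, -0.0597 to 0.305 for *Plxna1* and -0.44 to 0.0773 for *Plxna2*, and for *Nrp2* it was -0.10 in replicates 2 and 3 only. Among pathway genes it ran from -0.23 to 0.10 for *Sema3b*, -0.21 to 0.0556 for *Plxnb2*, -0.34 to 0.16 for *Adamts1*, -0.0644 to 0.22 for *Cfl1*, -0.35 to -0.0297 for *Sema4c*, -0.51 to -0.12 for *Sema6c*, -0.72 to -0.24 for *Plxnb1*, -0.58 to -0.21 for *Vegfa* and -0.25 to -0.10 for *Rac1*, and with quantile normalization it was 0.0050 for *Sema3b* and -0.13 for *Cfl1*. With 1 library left out, it ran from -0.55 to -0.24 for *Sema3f*, -0.38 to -0.19 for *Vegfb* and -0.32 to -0.18 for *Sema3g*. The log2 fold change of *Sema3g* was -0.17 with a pseudocount of 0.5 and -0.12 with a pseudocount of 1. The cause of these changes was not tested. Voom gave no value for *Plxnb2* and *Cfl1*, whose reads did not come out whole, and the filter at a mean FPKM of 1 none for *Sema3g*. Depth limits *Sema3e*, with 8 to 19 reads per library, which was tested only without a filter.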
